A study of Mus musculus with 8 samples.

Results

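The genes described here encode assembly factors of the large ribosomal subunit, the proteins that fold, cut, modify and move the large-subunit precursor but are not part of the finished ribosome. They were taken by gene symbol from a list of 36 names, and 35 of the 36 had a row among the 20388 gene identifiers with a usable value in every library. Noc2l was the name without a row and was not analysed here. All 35 passed the filter on low values, which asked for an FPKM (fragments scaled to transcript length and library depth) of 1 or more in no fewer than 2 libraries and which 11867 genes passed.

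The cells were mouse embryonic stem cells derived from tatsf1 flox/flox CreERT2 mice, so every group carried the floxed Htatsf1 gene and a Cre recombinase that tamoxifen activates. They received ethanol as the vehicle control or tamoxifen, which deletes Htatsf1, for 48 h or 72 h. Each of these 4 groups has 2 libraries, 8 in all. All cultures grew on mouse embryonic fibroblasts, whose RNA is in every library. Fewer cells of one type and less RNA per cell cannot be told apart in such bulk samples. Since every group carried the floxed allele and Cre, effects of the deletion and of tamoxifen itself cannot be told apart. The labels leave unsaid if replicates are separate cultures. The p-values therefore cover the spread between the libraries at hand, part or all of which may be technical.

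Ribosome assembly starts in the nucleolus, where RNA polymerase I copies one long precursor RNA that holds the ribosomal RNAs of both subunits, parted by spacers. The large-subunit precursor binds assembly factors in a set order. RNA helicases and scaffold proteins shape it, nucleases cut out the spacers, methyltransferases mark the ribosomal RNA, and GTPases and large ATPases of the AAA family drive the release of factors as the particle moves to the nucleoplasm and the cytoplasm. Embryonic stem cells divide fast and are known for prominent nucleoli and high expression of these factors. The DNA sequence CACGTG, an E-box, is the known binding sequence of MYC and related factors. MYC is known to drive many genes of ribosome production.

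The deletion was visible in every tamoxifen library. Htatsf1 read 21.7 to 23.0 FPKM in the 4 ethanol libraries and 3.78 to 4.63 FPKM in the 4 tamoxifen libraries. The stem cell markers Pou5f1 (472 to 655 FPKM) and Nanog (61.3 to 154 FPKM) were present in all 8 libraries, and Sox2 was listed at 0 in all 8. The feeder markers Col1a1 (50.0 to 125 FPKM) and Thy1 (33.1 to 77.1 FPKM) were present in all 8 as well. The confidence intervals around the FPKM values imply 8.99 to 16.8 M fragments per library, and the least covered of the 35 genes in any library rested on 493 implied fragments. Replicates were farthest apart in tamoxifen 72 h, where the median absolute log2 difference between replicates over the 35 genes was 0.12, against 0.05 to 0.07 in the other groups.

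Promoter windows from 250 bases before to 50 bases after the start of the gene (RefSeq, GRCm38.p6) matched 30 of the 35 genes, and 4 short motifs were searched on both strands. The E-box CACGTG lay in 6 of the 30 windows (20.0%), against 7.24% of all 27025 windows and 10.6% of the windows of tested genes. These 6 sites are shown as the E-box matches among the genes, and no link of the motif to a change was tested. Each line gives 30 bases on the strand of the gene, with the E-box in capitals.
Mdn1 (chr4:32657139-32657168, + strand): caacgtgaattccttcacCACGTGtgtgtc
Mybbp1a (chr11:72441347-72441376, + strand): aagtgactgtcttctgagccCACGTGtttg
Nle1 (chr11:82908355-82908384, - strand): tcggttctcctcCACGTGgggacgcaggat
Nop2 (chr6:125131811-125131840, + strand): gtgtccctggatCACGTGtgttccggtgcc
Pes1 (chr11:3963965-3963994, + strand): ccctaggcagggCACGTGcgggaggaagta
Sdad1 (chr5:92309986-92310015, - strand): agcggcgtgtccCACGTGccgtttccggtt
The site of Nop2 lay upstream of the annotated start and the other 5 began downstream of it, within the first bases of the transcript.

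The sequence CCGGAAGT, or ACTTCCGG on the other strand, which factors of the ETS family are known to bind, lay in 7 of the 30 windows (23.3%), against 4.0% of all windows and 8.53% of those of tested genes. The genes were Brix1, Ddx27, Ebna1bp2, Nip7, Nvl, Rrp15 and Wdr74. The other genes with this motif were not called here with tamoxifen at 72 h, with changes from -0.12 in Ebna1bp2 to 0.16 in Wdr74. No link of the motif to a change was tested. The sites of Nip7, Nvl and Rrp15, the ones called lower at 72 h, are shown with the match in capitals.
Nip7 (chr8:107056763-107056792, + strand): gctttcggtccCCGGAAGTccgccacggta
Nvl (chr1:181144198-181144227, - strand): ttgcgggggggACTTCCGGtgctagggacc
Rrp15 (chr1:186749309-186749338, - strand): attatcaggtggcACTTCCGGcgagccaag
The GC box GGGCGG, or CCGCCC, lay in 24 of the 30 windows (80.0%), against 35.9% of all windows and 67.7% of those of tested genes. The sequence GCATGCGC, or GCGCATGC, bound by NRF1, lay in the window of Ftsj3 alone, and in 5.88% of those of tested genes. In these windows no match overlapped one of another motif, and GC boxes overlapped one another in Gnl3 alone. Npm3 was lower with tamoxifen at both times by the largest amounts of the set, and its 250 bases upstream of the start (GRCm38.p6 chr19:45749566-45749815, - strand, 56.4% G and C) hold 2 GC boxes, in capitals.
Npm3: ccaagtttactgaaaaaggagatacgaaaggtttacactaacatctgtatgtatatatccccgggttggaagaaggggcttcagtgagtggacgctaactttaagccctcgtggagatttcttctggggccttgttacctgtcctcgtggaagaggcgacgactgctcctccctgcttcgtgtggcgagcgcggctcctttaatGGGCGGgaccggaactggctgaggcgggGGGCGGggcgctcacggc
A match is a description of these letters and not a measured binding site.

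FPKM is scaled to transcript length, so levels can be set side by side between genes. Npm1, nucleophosmin, an abundant nucleolar histone and ribosome chaperone, stood highest with a mean of 2260 FPKM over the 8 libraries (range 1589 to 2701). It made up 47.7% of the summed mean FPKM of the 35 genes. Ncl, nucleolin, which binds the precursor RNA, followed at 445 FPKM (322 to 584), and Mybbp1a, a nucleolar protein that also binds transcription factors, at 188 FPKM (164 to 209). Each of these 3 stood above the next gene in the order in every library. Below them neighbours in the order overlapped, from Gnl3 at 129 FPKM (111 to 146) down to Noc3l, a partner in early precursor assembly, at 23.6 FPKM (18.1 to 28.8). Npm1 has processed pseudogenes, so its reads may be split among copies and its value is uncertain.

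**Figure D1:**
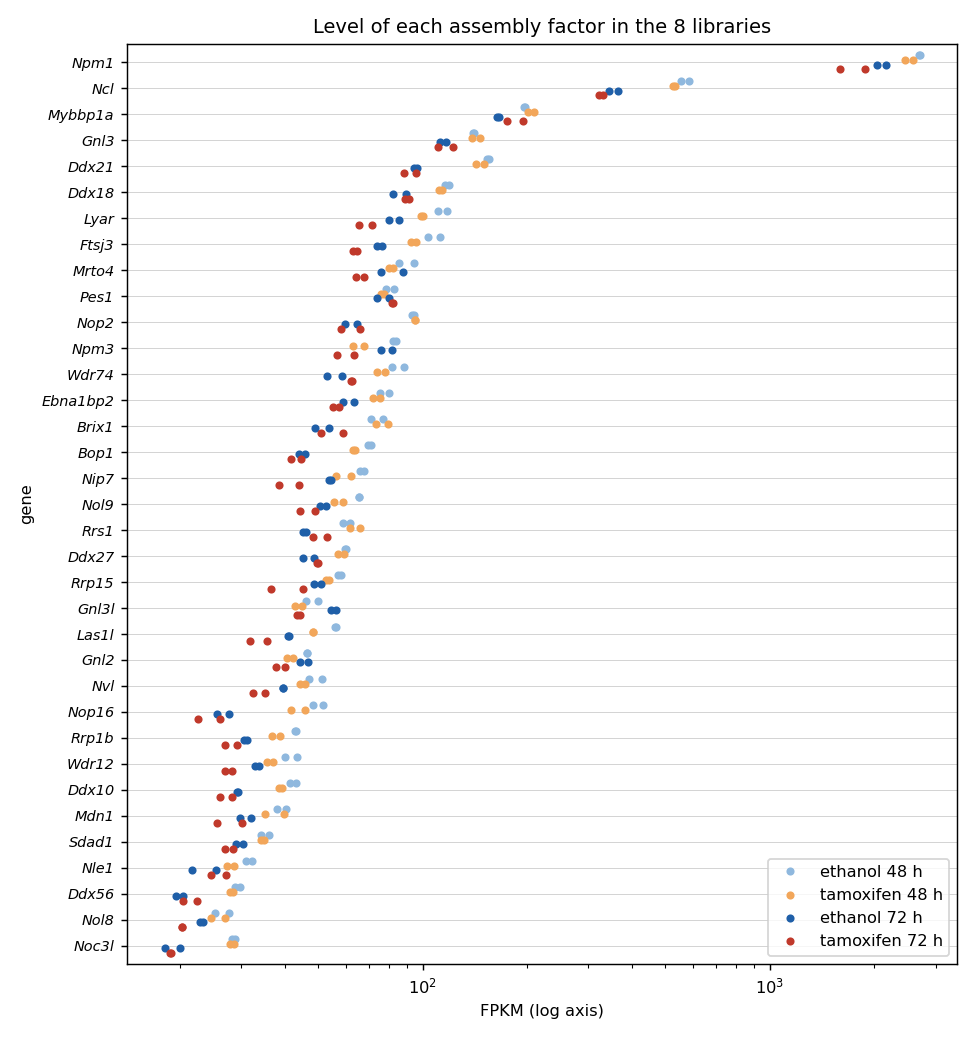
Level of each of the 35 assembly factors in FPKM (log axis), one point per library, coloured by group and ordered by the mean over the 8 libraries. Npm1, Ncl and Mybbp1a lie apart at the top, and for most genes the 72 h points lie to the left of the 48 h points.

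The main movement of these genes was a fall between 48 h and 72 h, which appeared in the vehicle cultures and in the tamoxifen cultures alike. In ethanol 29 of the 35 genes fell and 1 rose, against 19.2% of all tested genes falling and 38.0% rising. In tamoxifen 29 of 35 fell and 0 rose, against 19.6% and 37.5% of all genes. There, at an unadjusted p of 0.05, 30 were lower and 0 higher, against 2562 and 4809 of the 11867 tested genes. The median log2 change, on the scale of log2(FPKM + 1), was -0.36 in ethanol and -0.38 in tamoxifen, where the medians of all tested genes were 0.11 and 0.11. The summed FPKM of the 35 genes was 5587 and 5653 in the ethanol libraries of 48 h and 4201 and 4361 in those of 72 h. In tamoxifen it was 5343 and 5179 at 48 h and 3634 and 3953 at 72 h. Both 72 h libraries lay below both 48 h libraries for 31 of the 35 genes in ethanol, a pattern that 29.4% of all tested genes showed, and above them for 1 (Gnl3l), against 50.8% of all. In tamoxifen they lay below for 32 of the 35 and above for 1 (Pes1), against 28.3% and 50.1% of all tested genes.

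The same 27 genes fell in both treatments. That count was not set against the share of all tested genes falling in both, and no conclusion is drawn from it. The largest fall was that of Nop16, a nucleolar protein of early large-subunit precursors (chr13:54685552-54691435 of mm9). It stood at 48.2 and 51.8 FPKM in ethanol and 45.9 and 41.7 in tamoxifen at 48 h, and at 27.7 and 25.5 in ethanol and 22.6 and 26.1 in tamoxifen at 72 h. The 48 h and 72 h libraries of Nop16 did not overlap, and its log2 changes with time were -0.89 ± 0.08 (SE, adjusted p = 1.35e-05) in ethanol and -0.83 ± 0.08 (SE, adjusted p = 2.36e-05) in tamoxifen. Ncl, which takes second place in level, fell from 553 and 584 to 343 and 364 FPKM in ethanol (log2 change -0.68 ± 0.06 SE, adjusted p = 7.06e-06). In tamoxifen Ncl went from 533 and 527 to 322 and 331 FPKM (-0.70 ± 0.06 SE, adjusted p = 7.55e-06).

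By role, all 5 DEAD-box RNA helicases (Ddx10, Ddx18, Ddx21, Ddx27 and Ddx56), which unwind or remodel precursor RNA, fell with time in both treatments. Their log2 changes ran from -0.69 to -0.34 in ethanol and from -0.66 to -0.22 in tamoxifen, Ddx21 at the low end in both. Nop2, which methylates a cytosine of the large-subunit RNA, stood at 94.6 and 93.4 FPKM in ethanol at 48 h and at 64.5 and 59.7 at 72 h. Its tamoxifen values of 94.7 and 94.9 at 48 h and 65.9 and 58.3 at 72 h lay on nearly the same levels. Nop2 thus fell with time (-0.59 ± 0.07 SE in ethanol, -0.61 ± 0.07 SE in tamoxifen) and was the gene nearest to 0 with tamoxifen at 72 h.

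Not every gene took part. The genes without a call in ethanol were Pes1, Gnl2, Rrp15, Mrto4 and Npm3, and in tamoxifen Pes1, Gnl2, Gnl3l, Nle1, Mybbp1a and Npm3. Gnl3l, a nucleolar GTPase of the nucleostemin family, was the one gene that rose with time in ethanol (log2 change 0.20 ± 0.06 SE, adjusted p = 0.0145), and its change in tamoxifen was -0.00 ± 0.06 (SE, adjusted p = 0.99). After median-ratio scaling the rise of Gnl3l was not called.

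Pes1, Bop1 and Wdr12 form a complex needed to mature the large-subunit RNA, and their 3 transcripts did not move together. Pes1 (chr11:3863978-3880007) stood at 78.6 and 82.6 FPKM in ethanol and 76.0 and 77.2 in tamoxifen at 48 h, and at 79.7 and 73.9 in ethanol and 81.9 and 81.8 in tamoxifen at 72 h. Bop1 (chr15:76283426-76307699) stood at 71.0 and 69.8 FPKM in ethanol and 63.8 and 62.8 in tamoxifen at 48 h, and at 45.9 and 43.9 in ethanol and 44.5 and 41.6 in tamoxifen at 72 h. Pes1 kept within a narrow band, while every 72 h library of Bop1 lay below every 48 h library. The log2 change of Bop1 with time was -0.64 ± 0.06 (SE, adjusted p = 9.84e-06) in ethanol, and that of Pes1 was -0.07 ± 0.06 (SE, adjusted p = 0.309). The ratio of Bop1 to Pes1 FPKM was 0.903 and 0.845 in ethanol at 48 h and 0.576 and 0.594 at 72 h. In tamoxifen that ratio was 0.840 and 0.814 at 48 h and 0.543 and 0.509 at 72 h. Wdr12 fell with time by 0.32 on the log2 scale in ethanol and by 0.39 in tamoxifen.

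**Figure D2:**
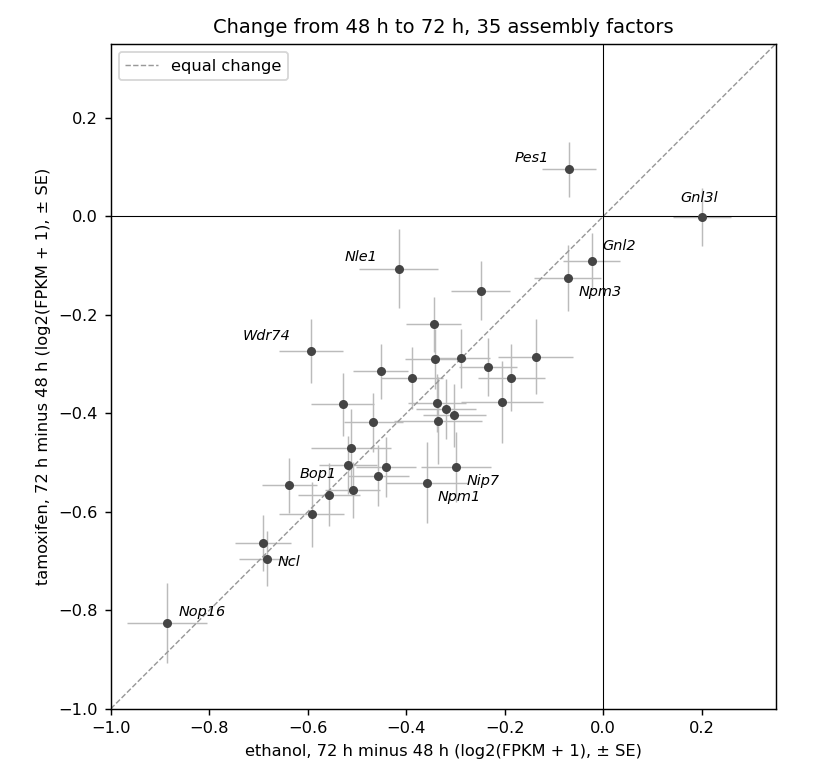
Change from 48 h to 72 h of each of the 35 assembly factors in ethanol (horizontal axis) and tamoxifen (vertical axis), as differences of log2(FPKM + 1) with standard errors from the fit, and a dashed line of equal change. Most genes lie at the lower left near the line, from Nop16 at -0.89 and -0.83 to Pes1, Gnl2 and Npm3 near 0. Gnl3l lies off the line at 0.20 in ethanol and -0.00 in tamoxifen.

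The changes with time in ethanol and in tamoxifen come from separate libraries. Across the 35 genes they had a Pearson r of 0.815 and a Spearman rho of 0.737, and 33 of 35 had the same sign. Across all 11867 tested genes r was 0.822, close to the value for the 35, and 9850 of the 11867 had the same sign. Genes are not independent replicates, and these values share libraries within each treatment. Harvest time moves with any difference in handling or sequencing between the 2 times, and these cannot be told apart. Markers of fibroblasts went both ways with time in ethanol, with 5 of 30 rising, 9 falling and a median of 0.02, and their summed level was 892 to 942 FPKM at 48 h and 941 to 978 FPKM at 72 h. In tamoxifen 25 of the 30 rose with time and 0 fell, with a median of 0.44. Of 20 p53 targets 15 rose and 1 fell with time in ethanol, and 18 rose and 0 fell in tamoxifen. Stem cell markers went both ways. Of the 19 tested, 8 rose and 7 fell in ethanol, and 6 rose and 10 fell in tamoxifen. The part of these lists in the fall of the assembly factors was not tested. Scaling affects these counts. Median-ratio scaling moved the median of all genes from 0.11 to -0.00 in ethanol and from 0.11 to 0.01 in tamoxifen. With it 34 and 33 of the 35 genes fell, with medians of -0.49 and -0.50, while 3371 of all genes fell and 3343 rose in ethanol in place of 2278 and 4506. In tamoxifen 3311 fell and 3316 rose in place of 2328 and 4446.

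Tamoxifen against ethanol asks how these genes stood after deletion of Htatsf1 was induced. At 48 h the values were mostly slightly lower with tamoxifen: 2 of the 35 genes fell, Npm3 and Las1l, and 0 rose, against 4.47% of all tested genes falling and 7.88% rising. At an unadjusted p of 0.05, 12 were lower and 0 higher, against 1356 and 1954 of the 11867 tested genes. The share that fell, 5.71%, was close to that of all genes. The count was 7 after median-ratio scaling, where 768 of the 11867 tested genes fell, and 0 to 5 with 1 library left out. Las1l lost its call under most alternatives tried. The median of the 35 log2 changes was -0.11 and that of all genes 0.02. Of the 35 changes 30 were negative, against 5421 of the 11867 tested genes. Both tamoxifen libraries lay below both ethanol libraries for 26 genes, above for 3 (Nop2, Rrs1 and Mybbp1a) and overlapped for 6, where 26.1% of all tested genes lay below and 32.7% above. In the authors' deposited table of scaled counts from the same libraries 12 of the 35 were lower and 0 higher at their adjusted p of 0.05, against 5.31% and 6.62% of its genes. Those 12 were Bop1, Wdr12, Ftsj3, Nip7, Nle1, Wdr74, Las1l, Nol9, Nop16, Rrp1b, Npm3 and Lyar.

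At 72 h 12 of the 35 genes fell with tamoxifen and 0 rose, against 18.5% of all tested genes falling and 20.1% rising. At an unadjusted p of 0.05, 14 were lower and 3 higher, against 2763 and 2928 of the 11867 tested genes. The 12 were Wdr12, Nip7, Ftsj3, Gnl2, Gnl3l, Nvl, Las1l, Rrp15, Mrto4, Npm1, Npm3 and Lyar, with log2 changes from -0.39 to -0.22. The 35 genes had a median of -0.12 and all genes one of -0.01. Both tamoxifen libraries lay below both ethanol libraries for 19 genes, above for 5 (Pes1, Ddx27, Wdr74, Rrs1 and Mybbp1a) and overlapped for 11, where 34.5% of all tested genes lay below and 35.2% above. The count rests on single libraries. It was smaller without ethanol 72 h replicate 2 or tamoxifen 72 h replicate 1. Fewer of all tested genes were called lower there too. The median of the 35 genes was -0.10 and -0.11 in these 2 fits, and that of all genes 0.00 and 0.00. Gnl3l, Las1l, Nip7, Npm3 and Wdr12 kept their calls under all 17 alternatives.

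**Figure D3:**
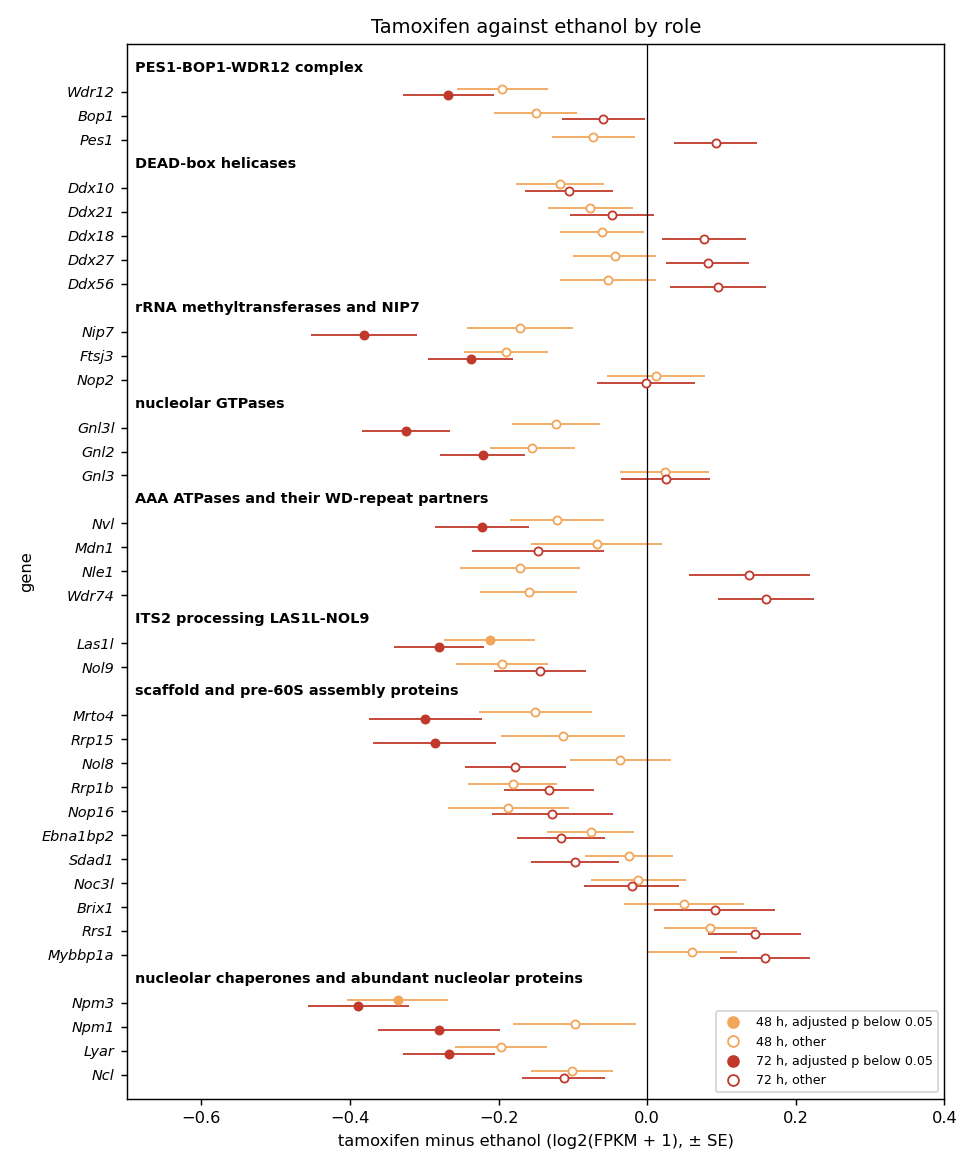
Difference between tamoxifen and ethanol for each of the 35 genes by role, in log2(FPKM + 1) with standard errors from the fit, at 48 h (orange) and 72 h (red), with filled points where the adjusted p was below 0.05. The filled points at 72 h lie between -0.39 and -0.22, and Wdr74 (-0.16 at 48 h, 0.16 at 72 h) and Nle1 (-0.17, 0.14) lie on opposite sides of 0 at the 2 times.

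Npm3, a small relative of nucleophosmin in the nucleoplasmin family, had the most negative change at both times (chr19:45822224-45824053 of mm9). It stood at 81.9 and 83.5 FPKM in ethanol and 62.9 and 67.7 in tamoxifen at 48 h. At 72 h the values were 81.4 and 76.0 in ethanol and 56.5 and 63.3 in tamoxifen. All 4 tamoxifen libraries lay below all 4 ethanol libraries, and the change with time was not called in either treatment (-0.07 in ethanol, -0.13 in tamoxifen). The log2 changes were -0.34 ± 0.07 (SE, adjusted p = 0.011) at 48 h and -0.39 ± 0.07 (SE, adjusted p = 0.00148) at 72 h. The call at 48 h was lost without ethanol 48 h replicate 1, ethanol 48 h replicate 2 or tamoxifen 48 h replicate 1 (adjusted p up to 0.0856). In the GENCODE annotation 9.46% of the exonic bases of Npm3 overlap Gm15491 on the other strand. The strand setting of the counting is not given in the sources used here, so reads of the 2 genes cannot be told apart there.

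Npm1 (chr11:33052498-33063206) read 2701 and 2682 FPKM in ethanol and 2589 and 2442 in tamoxifen at 48 h, and 2036 and 2164 in ethanol and 1589 and 1881 in tamoxifen at 72 h. Tamoxifen libraries were lower at both times, and the 2 tamoxifen libraries of 72 h were the farthest apart. Npm1 fell with tamoxifen at 72 h (-0.28 ± 0.08 SE, adjusted p = 0.0216) and was not called at 48 h (-0.10 ± 0.08 SE, adjusted p = 0.478). The 72 h call was lost without ethanol 72 h replicate 2 or tamoxifen 72 h replicate 1, without the filter on low values, and in a fit of the 72 h libraries only, with adjusted p up to 0.138, and the change was -0.16 without tamoxifen 72 h replicate 1 and -0.40 without replicate 2. Lyar, a nucleolar zinc finger protein, read 110.3 and 118 FPKM in ethanol and 98.7 and 99.9 in tamoxifen at 48 h, and 80.2 and 85.5 in ethanol and 65.7 and 71.7 in tamoxifen at 72 h. It fell at 72 h (-0.27 ± 0.06 SE, adjusted p = 0.00673, or 0.056 without ethanol 72 h replicate 2), and at 48 h its change of -0.20 had an adjusted p of 0.0644, or 0.05 with a replicate block. Ncl stood at -0.10 and -0.11 and was not called here at either time. The authors' deposited table had Ncl lower at 72 h (-0.23, authors' adjusted p 0.0206).

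Las1l and Nol9 work as a pair on the second internal spacer, Las1l as the nuclease that cuts it and Nol9 as the kinase that phosphorylates the cut RNA. Las1l (chrX:93130652-93152298) read 56.0 and 56.3 FPKM in ethanol and 48.4 and 48.3 in tamoxifen at 48 h, and 41.0 and 41.2 in ethanol and 31.8 and 35.6 in tamoxifen at 72 h. Nol9 (chr4:151413436-151435603) read 65.5 and 65.6 FPKM in ethanol and 55.5 and 58.8 in tamoxifen at 48 h, and 52.5 and 50.6 in ethanol and 48.9 and 44.3 in tamoxifen at 72 h. Both genes lay lower with tamoxifen at each time with no overlap, and lower at 72 h than at 48 h. Las1l fell with tamoxifen at 48 h (-0.21 ± 0.06 SE, adjusted p = 0.0473) and at 72 h (-0.28 ± 0.06 SE, adjusted p = 0.00495). With a replicate block its 48 h adjusted p was 0.0612. Nol9, at -0.20 and -0.14, was not called here (adjusted p = 0.0665 and 0.0893). The authors' deposited table had Nol9 lower at 48 h (authors' adjusted p 0.00517) and did not call it at 72 h (0.0725).

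Among the nucleolar GTPases, Gnl2 and Gnl3l fell with tamoxifen at 72 h and Gnl3 was not called. Gnl3l (chrX:147417676-147451865) read 50.1 and 46.0 FPKM in ethanol and 45.0 and 42.9 in tamoxifen at 48 h, and 56.1 and 54.5 in ethanol and 44.4 and 43.5 in tamoxifen at 72 h. The ethanol libraries of 72 h stood highest and the other groups close together. The tamoxifen change of Gnl3l was -0.12 ± 0.06 at 48 h (SE, adjusted p = 0.207) and -0.32 ± 0.06 at 72 h (SE, adjusted p = 0.0019), and the 2 changes did not differ by the test (adjusted p = 0.206). Gnl2, which acts on the late nuclear particle (chr4:124707258-124732626), read 46.3 and 46.3 FPKM in ethanol and 42.4 and 40.6 in tamoxifen at 48 h. Its 72 h values were 44.4 and 46.7 in ethanol and 37.8 and 40.0 in tamoxifen, a change of -0.22 ± 0.06 (SE, adjusted p = 0.0119). Gnl2 kept its ethanol level from 48 h to 72 h within the replicate spread. Gnl3, nucleostemin, known as a marker of stem and cancer cells (chr14:31825619-31832275), read 139.7 and 141 FPKM in ethanol and 146 and 139 in tamoxifen at 48 h, and 112 and 117 in ethanol and 111 and 123 in tamoxifen at 72 h. The treatments of Gnl3 overlapped at both times, with changes of 0.02 ± 0.06 and 0.02 ± 0.06 (SE).

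**Figure D4:**
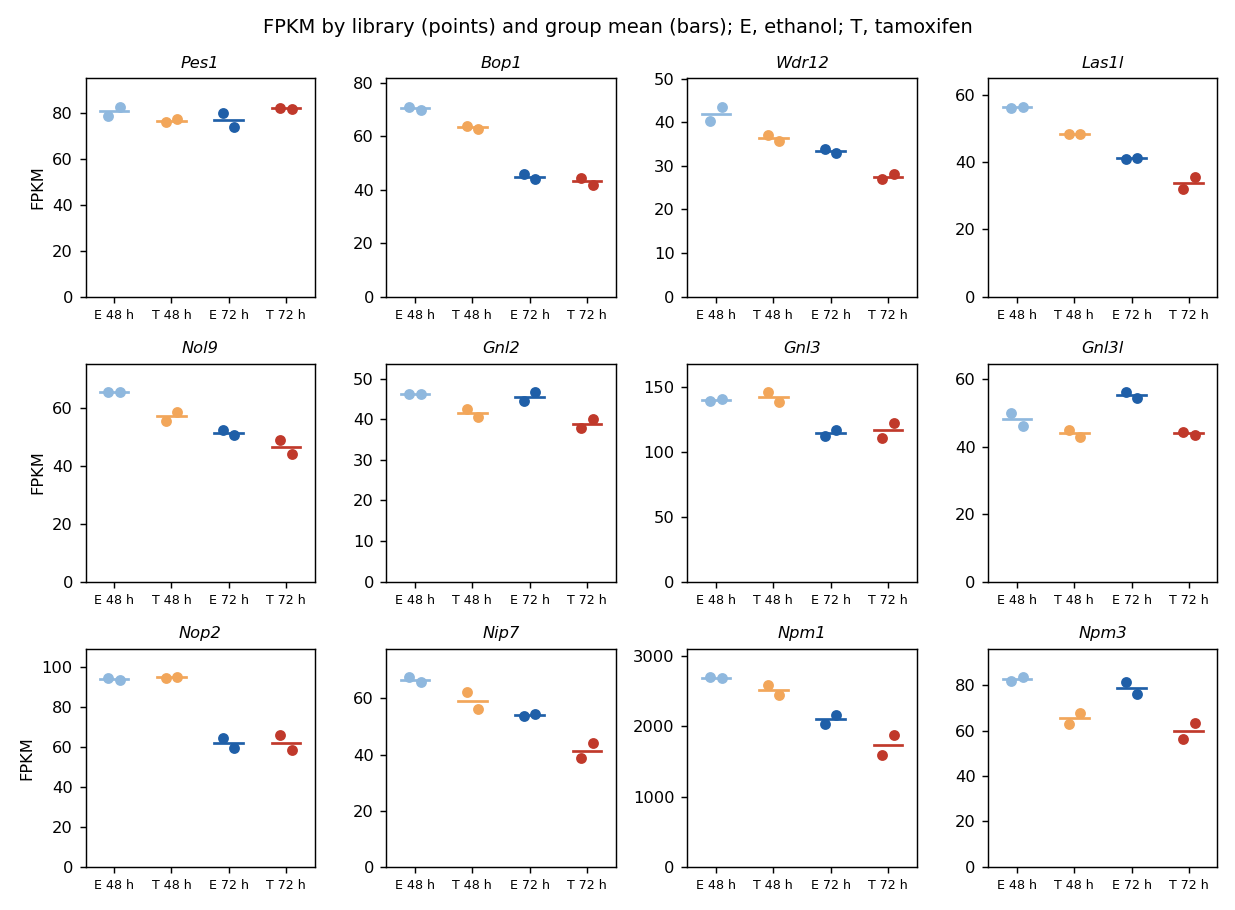
FPKM of 12 genes in each library (points) with the mean of each group (bars), for ethanol (E) and tamoxifen (T) at 48 h and 72 h; each axis starts at 0. Npm3, Gnl2 and Gnl3l are lower with tamoxifen at 72 h and have no called fall with time in ethanol (Gnl3l rose by 0.20), while Bop1, Gnl3 and Nop2 fall with time with little difference between treatments at 72 h.

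In the PES1-BOP1-WDR12 complex the third member was the one called lower with tamoxifen by the fit here, at 72 h. In the authors' deposited table at 48 h Bop1 and Wdr12 were both lower (-0.19 and -0.22, authors' adjusted p 0.0354 and 0.0187). Pes1 was not called there (authors' adjusted p 0.452). Wdr12 (chr1:60133712-60155344) read 40.2 and 43.5 FPKM in ethanol and 37.1 and 35.7 in tamoxifen at 48 h, and 33.8 and 32.9 in ethanol and 26.9 and 28.2 in tamoxifen at 72 h. It fell at 72 h (-0.27 ± 0.06 SE, adjusted p = 0.00627), where Bop1 stood at -0.06 and Pes1 at 0.09 (adjusted p = 0.427 and 0.218). The ratio of Wdr12 to Pes1 was 0.424 and 0.445 in ethanol and 0.328 and 0.344 in tamoxifen at 72 h.

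Of the RNA methyltransferases and their partner, Ftsj3 and Nip7 fell with tamoxifen at 72 h and Nop2 was not called (-0.00, adjusted p = 0.987). Nip7, a small protein that works beside Ftsj3 on precursor RNA (chr8:109580777-109584828), read 67.6 and 65.9 FPKM in ethanol and 62.1 and 56.3 in tamoxifen at 48 h, and 53.7 and 54.4 in ethanol and 38.6 and 44.1 in tamoxifen at 72 h. Its 72 h change of -0.38 ± 0.07 (SE, adjusted p = 0.00221) left 76.5% of the ethanol mean, close to the 76.1% of Npm3. Ftsj3, a ribose methyltransferase (chr11:106110458-106117116), read 103 and 112 FPKM in ethanol and 95.9 and 92.3 in tamoxifen at 48 h, and 74.1 and 76.5 in ethanol and 64.5 and 62.9 in tamoxifen at 72 h. It fell at 72 h (-0.24 ± 0.06 SE, adjusted p = 0.00791), and without ethanol 72 h replicate 2 its adjusted p was 0.0532.

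The AAA ATPases Nvl and Mdn1 act with the WD-repeat proteins Wdr74 and Nle1. Of these 4 genes Nvl was called here with tamoxifen at 72 h and the other 3 were not. Nvl (chr1:183023554-183074288) read 46.9 and 51.2 FPKM in ethanol and 45.8 and 44.2 in tamoxifen at 48 h, and 39.5 and 39.6 in ethanol and 32.5 and 35.1 in tamoxifen at 72 h. It fell at 72 h (-0.22 ± 0.06 SE, adjusted p = 0.0185), a call lost without ethanol 72 h replicate 1, ethanol 72 h replicate 2 or tamoxifen 72 h replicate 1 (adjusted p up to 0.105). Wdr74, which binds Nvl, read 81.4 and 88.2 FPKM in ethanol and 77.8 and 73.7 in tamoxifen at 48 h, and 58.7 and 53.1 in ethanol and 62.2 and 62.7 in tamoxifen at 72 h. The tamoxifen libraries of Wdr74 lay below ethanol at 48 h and above it at 72 h. Neither change was called here (-0.16 ± 0.06 SE, adjusted p = 0.139, and 0.16 ± 0.06 SE, adjusted p = 0.0755), nor was their difference (adjusted p = 0.0875). Nle1, which binds Mdn1, had changes of -0.17 and 0.14 and an adjusted p of 0.159 for the difference. In the authors' deposited table both were lower at 48 h (-0.21 for Wdr74, -0.25 for Nle1, authors' adjusted p 0.0233 and 0.0294) and higher at 72 h (0.20 for Wdr74, 0.19 for Nle1, authors' adjusted p 0.0205 and 0.046). No other member was higher at 72 h in that table, which had 18 of the 35 lower and 2 higher, against 15.5% and 16.5% of its genes. The 18 were the genes called lower here at 72 h and Ddx10, Mdn1, Nol8, Ebna1bp2, Sdad1 and Ncl.

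Among the 11 scaffold and particle proteins with a row, Mrto4 and Rrp15 fell with tamoxifen at 72 h, and the other 9 were not called here at either time. Mrto4 resembles a stalk protein of the finished ribosome and holds its place in the precursor. It read 85.4 and 94.4 FPKM in ethanol and 81.9 and 79.7 in tamoxifen at 48 h, and 75.7 and 87.9 in ethanol and 64.4 and 67.9 in tamoxifen at 72 h. Its 72 h change was -0.30 ± 0.08 (SE, adjusted p = 0.0111). Rrp15, a nucleolar processing factor, read 58.1 and 57.0 FPKM in ethanol and 52.5 and 53.8 in tamoxifen at 48 h, and 48.6 and 51.0 in ethanol and 36.6 and 45.1 in tamoxifen at 72 h. Rrp15 changed by -0.29 ± 0.08 (SE, adjusted p = 0.0205) at 72 h, with its 2 tamoxifen libraries apart from each other. Both calls, and that of Gnl2, were lost without ethanol 72 h replicate 2 or tamoxifen 72 h replicate 1 (adjusted p up to 0.0958 for Mrto4, 0.124 for Rrp15 and 0.0824 for Gnl2). The 72 h change of Mrto4 was -0.19 without ethanol 72 h replicate 2 and -0.40 without replicate 1. That of Rrp15 was -0.14 without tamoxifen 72 h replicate 1 and -0.43 without replicate 2. The other 9 (Nop16, Rrp1b, Rrs1, Nol8, Ebna1bp2, Brix1, Sdad1, Noc3l and Mybbp1a) had 72 h changes from -0.18 in Nol8 to 0.16 in Mybbp1a. Of these, the authors' deposited table had Nop16 and Rrp1b lower at 48 h and Nol8, Ebna1bp2 and Sdad1 lower at 72 h. Rrs1, Brix1, Noc3l and Mybbp1a were not called there at either time. The 5 DEAD-box helicases were also without a call here, at -0.12 to -0.04 at 48 h and -0.11 to 0.09 at 72 h. In the authors' deposited table Ddx10 alone of these was called, lower at 72 h (-0.22, authors' adjusted p 0.00906).

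The difference of the tamoxifen effect between the times was tested directly. Of the 35 genes 0 were called lower and 0 higher by limma, against 1.45% and 2.00% of all tested genes. At an unadjusted p of 0.05, 1 was lower (Gnl3l) and 2 higher (Wdr74 and Nle1), against 1287 and 1163 of the 11867 tested genes. The effects at 48 h and 72 h, which share no library, had a Pearson r of 0.646 and a Spearman rho of 0.607 over the 35 genes, with 28 of 35 of the same sign. Across all tested genes r was 0.689, and 8545 of 11867 had the same sign.

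Markers of the feeder cells and p53 targets moved with tamoxifen in the same libraries. Of 30 fibroblast markers 27 rose and 0 fell at 48 h, and 29 rose and 0 fell at 72 h, with medians of 0.52 and 1.07. Their summed level was 1302 to 1307 FPKM in tamoxifen at 48 h and 1807 to 1926 FPKM at 72 h, against 892 to 978 FPKM in the ethanol libraries of both times, and 0 of the 30 were at 0 in all libraries. Col1a2 was 28.6 to 31.8 FPKM in ethanol and 45.5 to 79.1 in tamoxifen. Of 19 tested stem cell markers 1 fell at 48 h and 11 at 72 h, with 0 rising. Their sum over 20 was 3818 and 3749 FPKM in ethanol and 3707 and 3608 in tamoxifen at 48 h. At 72 h it was 4915 and 4763 FPKM in ethanol and 3793 and 4239 in tamoxifen. Pou5f1 was not called (0.10, adjusted p = 0.181), while Nanog changed by -0.51 ± 0.07 (SE, adjusted p = 0.000276) and Zfp42 by -0.47 ± 0.06 (SE, adjusted p = 0.000327) at 72 h. Of 20 p53 targets, genes of the cell cycle arrest and death response that ribosome assembly defects are known to engage, 16 rose at 48 h and 17 at 72 h, with 0 falling. Of 8 tested markers of other differentiated cell types 0 were called at 48 h and 2 rose and 1 fell at 72 h, with Ttr and Sox1 at 0 in all libraries. The part of feeder RNA, stem cell state and p53 in the lower values of the assembly factors was not tested.

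Most genes of other ribosome production lists also fell with time. Of 37 other large-subunit assembly genes 25 fell and 2 rose in ethanol, of 52 small-subunit assembly genes 42 fell and 1 rose, and of 19 genes of RNA polymerase I and its factors 12 fell and 0 rose, with medians of -0.31, -0.29 and -0.23. In tamoxifen 20 fell and 3 rose, 43 fell and 0 rose, and 13 fell and 2 rose. With tamoxifen at 48 h 3 of the 37 other large-subunit genes fell and 0 rose. Of the 52 small-subunit genes 9 fell and 1 rose, and of the 19 polymerase genes 1 fell and 0 rose. All tested genes had 4.47% falling and 7.88% rising. At 72 h 7 of the 37 other large-subunit genes fell and 7 rose, with a median of 0.01, near the shares of all tested genes (18.5% lower and 20.1% higher). The difference between this list and the 35 genes was not tested. Of the 52 small-subunit genes 16 fell and 4 rose at 72 h, and of the 19 polymerase genes 4 fell and 1 rose. Their medians were -0.06 and 0.06, and their differences from the 35 genes were not tested either.

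The 72 h changes ran from -0.54 to 0.32 in the other large-subunit list, from -0.78 to 0.60 in the small-subunit list and from -0.52 to 0.29 in the polymerase list, and from -0.39 to 0.16 in the 35 genes. The genes named here are the 2 of smallest p at 72 h in each list. Rpf2, which brings the small ribosomal RNA of the central protuberance into the large subunit, read 53.1 and 56.9 FPKM in ethanol and 34.0 and 41.4 in tamoxifen at 72 h (-0.54 ± 0.09 SE, adjusted p = 0.000819). Urb2 stood at -0.33 ± 0.06 (SE, adjusted p = 0.00155). Of the small-subunit list, the helicase Ddx49 read 40.9 and 39.3 in ethanol and 27.2 and 25.8 in tamoxifen (-0.58 ± 0.06 SE, adjusted p = 4.26e-05). Utp20, a large scaffold protein of the small-subunit precursor, went the other way, from 27.7 and 28.5 FPKM to 45.1 and 41.1 (0.60 ± 0.07 SE, adjusted p = 0.000105). Of the polymerase list, the shared subunit Polr2h stood at -0.43 ± 0.07 (SE, adjusted p = 0.0013) and Taf1b, a promoter factor, at -0.52 ± 0.09 (SE, adjusted p = 0.00186).

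**Figure D5:**
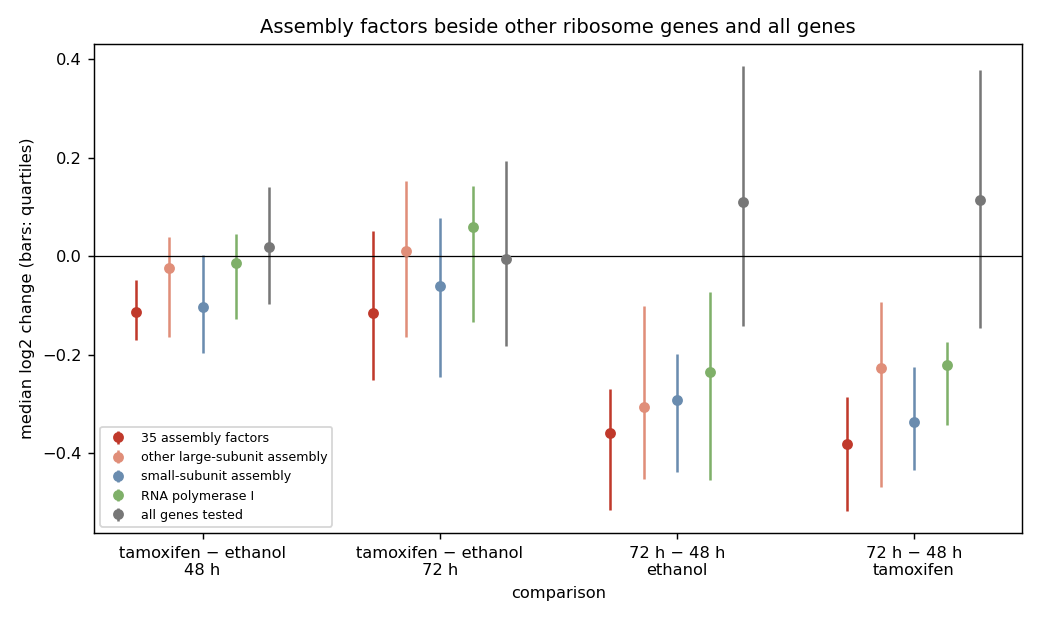
Median log2(FPKM + 1) change (points) with quartiles over genes (bars) for the 35 assembly factors, 3 other lists of ribosome production genes and all tested genes, in 4 comparisons. The ribosome lists lie below all genes in both comparisons of 72 h with 48 h (-0.36 and -0.38 for the 35 genes against 0.11 and 0.11), and nearer to all genes in the comparisons of tamoxifen with ethanol (-0.11 and -0.12 for the 35 genes against 0.02 and -0.01).

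Gene structure was not used to choose the genes. The 35 had a median of 14 exons in GENCODE, from 1 in Rrs1 to 102 in Mdn1, against 9 for the 11222 tested genes that could be matched. The 12 genes lower with tamoxifen at 72 h had a median of 12 exons and the other 23 one of 15. Gnl3 and Ncl carry small nucleolar RNA genes within their bounds, 2 of 35 (5.71%) against 1.67% of tested genes. Among them are Snord19 and Snord69 in Gnl3 and Snora75 and Snord82 in Ncl. Neither host was called with tamoxifen by the fit here, while both fell with time in ethanol (Gnl3 -0.29, Ncl -0.68).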

How the data were processed

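Bead-enriched mRNA was sequenced as paired ends in 8 libraries, 4 groups of 2 by the labels. The build was mm9 and the tools named were TopHat 1.4.1, Cufflinks 1.3.0, BWA 0.6.1, DESeq and HTSeq, per the submitters' processing notes, which as held here give no roles. The authors deposited FPKM values per gene with confidence intervals. They also deposited 2 comparison tables, whose group means are a signal of scaled counts, with a fold ratio, a log2 fold change and p-values per gene, per the file headers. Their log2 values are ethanol over tamoxifen, and the sign was turned here.

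Entries with a failed status in any library (209 of 20789) were left out and 1 row kept per identifier. FPKM values were used without rescaling as log2(FPKM + 1), which understates changes of low genes. One limma fit (R 4.3.3, limma 3.58.1, eBayes with trend) with a mean for each group over all 8 libraries had 4 residual degrees of freedom. Tests were two-sided, adjusted by Benjamini-Hochberg over 11867 genes within each of 5 contrasts and called at 0.05. The fit was also run on simulated data with independent noise, and no conclusion on the calls is drawn from that run. Implied fragments come from the interval, taken as 2 SD of a Poisson count, and cover counting error only. Positions of genes are those of the files on mm9, counted from 1, and span exons and introns. Promoter windows, exons and overlaps are of GRCm38.

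The genes, roles, lists and rules for naming were chosen with earlier results of these data known, so counts over a list are descriptions and no list was tested. Values in every library were given for the PES1-BOP1-WDR12 complex, LAS1L-NOL9, the GTPases, Npm1, Npm3 and the called genes, and the 2 genes of smallest p at 72 h for each other ribosome list. Nop2, Ncl, Nop16, Wdr74 and Nle1 were shown in more detail after their values were seen. Replicate numbers were not taken to pair the libraries: the correlation of replicate differences between groups ran from -0.276 to 0.145 and the labels state no pairing. Alternatives were other pseudocounts, filters, scalings, fits and left-out libraries.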

Additional observations from a re-analysis of the deposited data

How the results depend on the processing

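The fall with time was stable in size, and no alternative turned either median. With 1 library left out, the median of the 35 genes ran from -0.39 to -0.36 in ethanol and in tamoxifen. That of all tested genes ran from 0.10 to 0.12 in both. The 48 h counts of tamoxifen against ethanol were the least stable. In place of 2 genes lower, the count was 7 after median-ratio scaling and 1 after quantile normalization, where 768 and 549 of 11867 tested genes were lower. It was 1 without the trend and 4 in the 4 libraries of 48 h alone, where 378 and 597 of all were lower. Without the filter on low values it was 1, where 308 of 17215 genes were lower. The count was smaller with any 48 h library or ethanol 72 h library left out. It was larger with a tamoxifen 72 h library left out. The calls over all tested genes moved the same way. At 72 h the count of 12 lower was smaller with some single libraries left out, where fewer of all tested genes were called lower as well. The count of 0 higher became 1 after quantile normalization (Wdr74) and ran from 0 to 1 with libraries left out. For the change with time, the 1 gene higher in ethanol became 0 after median-ratio scaling (0 to 1 with libraries left out), and the 0 higher in tamoxifen became 1 after quantile normalization. The median of the difference between the times, -0.01, turned to 0.00728 without ethanol 48 h replicate 1 and 0.00812 without ethanol 72 h replicate 2, with a range of -0.0379 to 0.00812. The cause of these shifts was not tested.

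With a replicate block the counts were the same (2, 12, 29 and 29 lower), Las1l lost its 48 h call and Lyar gained one (adjusted p = 0.05), and no other call with tamoxifen changed. The 2 tamoxifen groups differed by number in opposite senses (correlation -0.276). A crossed pairing of the 4 tamoxifen libraries, chosen after seeing the data, called 30 genes lower and 0 higher with time. That count was not set against the calls over all tested genes under the same pairing. No conclusion on the fall with time is drawn from it. Of the genes not called, 8 of 33 at 48 h and 5 of 23 at 72 h changed sign in at least 1 setting, so their direction is not settled. Each gene rested on at least 493 implied fragments in every library, and how far counting error limits the calls was not tested.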
